A study of Mus musculus with 6 samples.

Results

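Imprinted genes, which are read mainly from the copy inherited from a single parent, were examined in mouse embryonic stem (ES) cells with and without Satb1. In all, 35 imprinted genes were listed by name, and a gene counted as measured where a probe set carried its symbol and no other. This left 30 of the 35 genes, among 19938 genes tested. The paternal copy is listed as the expressed one for 16 of the 30 and the maternal copy for 14. Which copy these ES cells express was not read. H19 and Zrsr1, whose symbols were on no annotated probe set, and Snrpn, Ube3a and Gnas, whose probe sets carried several symbols, were not fitted.

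RNA came from 3 samples of Satb1-/- ES cells, labelled as clones 1-1, 1-2 and 2-1, and 3 samples of wild-type (WT) ES cells, numbered 1, 2 and 3. Both genotypes carried a HygroTK marker in the Oct4 locus and were kept in serum with LIF. They were grown for 3 days over irradiated feeder cells under hygromycin, which selects for Oct4 expression, and feeders were depleted by settling before lysis. Strain, and whether the clones share an origin with the WT cells, are not stated in the labels, and separate cultures are not stated either, so p-values measure only the spread between these 6 samples, which may be technical. Each sample was read on a 1-colour array as log2 expression, so that a difference of -1 is a halving. Each gene is read by its own probes, so levels rank no genes; "dim" means only a mean signal below that of the median gene, which the probes can set too.

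Satb1, which encodes a DNA-binding organiser of chromatin, read 4.38, 4.47 and 4.57 in Satb1-/- arrays and 5.12, 4.99 and 5.31 in WT arrays (difference -0.67, SE 0.12, limma adjusted p = 0.022). The labels do not place its probes relative to the deletion, and the call was lost without any one Satb1-/- array or WT array 1. The ES cell gene Pou5f1 (Oct4) averaged 9.83 ± 0.07 in Satb1-/- and 10.22 ± 0.28 in WT arrays (SD, n = 3 each; limma adjusted p = 0.309). Pearson's r between arrays over all probe sets was 0.989 to 0.991 within Satb1-/-, 0.975 to 0.986 within WT and 0.981 to 0.987 between the groups. In bulk samples, fewer cells of a type and less RNA per cell cannot be told apart.

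Imprinting rests on DNA methylation laid down at control regions in egg or sperm. After fertilisation the mark is guarded by the zinc-finger protein ZFP57 with its partner TRIM28 and copied at each division by DNMT1 with UHRF1. Many paternally expressed genes promote growth of the fetus and placenta and many maternally expressed ones restrain it. ES cells are known for imprints that drift in culture. An array of this kind reads the sum of both copies, so it cannot say which copy a change came from.

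Of the 30 measured genes, 2 fell in Satb1-/- arrays and 0 rose (limma, p adjusted over all 19938 genes by the Benjamini-Hochberg method, under 0.05). Both, Peg10 and Peg3, are paternally expressed. Over all genes tested, 0.476% fell and 0.923% rose by the same rule, 1.4% in all. At an unadjusted limma p under 0.05, 7 of the 30 were lower and 2 higher, against 4.55% and 5.92% of all genes. In 7 of the 30 every Satb1-/- value lay below every WT value and in 1 every value lay above, where 6.97% and 8.18% of all genes did so.

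By parental copy, 13 of the 16 paternally expressed genes had a difference below 0 and 3 above it, with a median of -0.13. Among the 14 maternally expressed genes, 6 lay below 0 and 8 above, with a median of 0.05. Over all genes tested, 10259 of 19938 lay below 0 and the median was -0.00439. The paternal genes ran from -1.30 (Peg10) to 0.27 (Usp29) and the maternal genes from -0.64 (Phlda2) to 0.59 (Dcn). The maternal median was -0.03 without WT array 3 and 0.00632 without Satb1-/- array 1-1, and the paternal median stayed between -0.17 and -0.08 with any one array left out. With Peg10, Peg3 and Sgce left out, a choice made after their values were seen, the paternal median was -0.077. The mean deviation of the other 13 paternal genes from their own 6-array means was then -0.034, -0.093 and -0.00523 in Satb1-/- arrays and 0.064, -0.022 and 0.090 in WT arrays, which overlapped. Whether the parental groups differ from each other was not tested, as the genes were chosen with earlier results known.

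**Figure D1:**
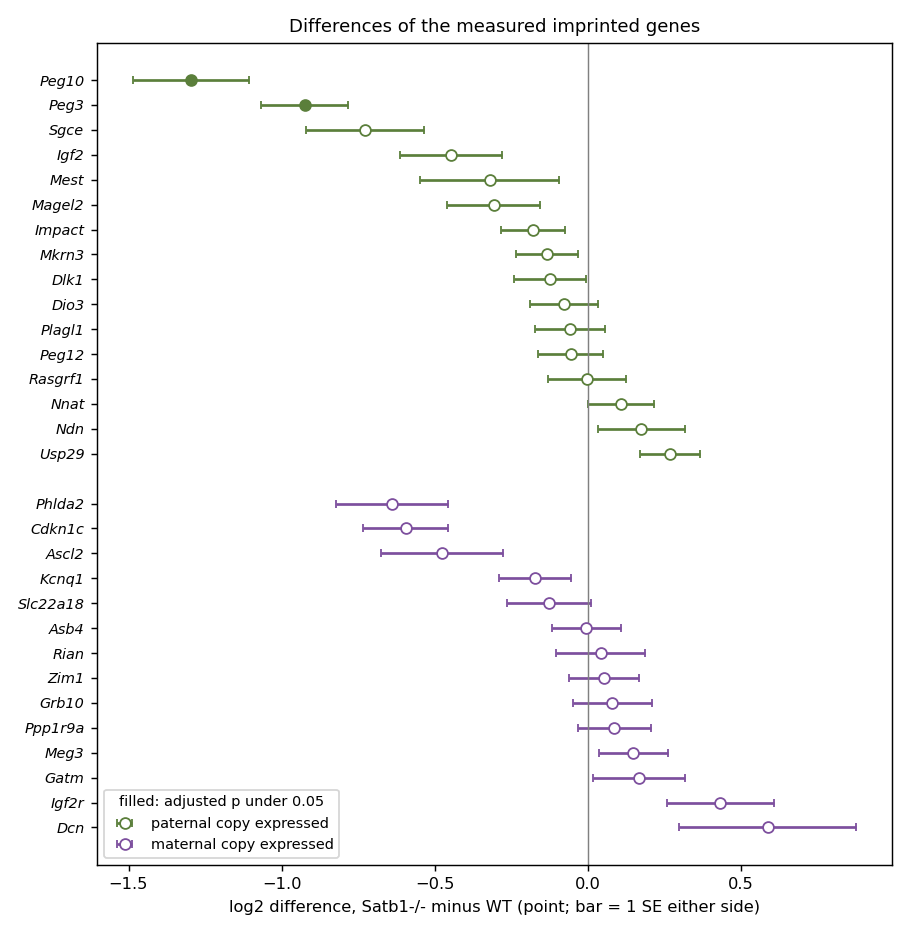
Log2 difference, Satb1-/- minus WT, of the 30 measured imprinted genes (point) with 1 SE either side (bar), in blocks by expressed parental copy. Only Peg10 (-1.30) and Peg3 (-0.92), drawn filled, passed the threshold, and the maternal block spreads from -0.64 to 0.59.

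Peg10, a gene derived from a retrotransposon and needed for the placenta, had the largest fall. It read 9.51, 9.71 and 9.59 in Satb1-/- arrays, against 10.56, 10.74 and 11.40 in WT arrays. All Satb1-/- values lay together and well below WT, where array 3 stood highest. The means were 9.60 ± 0.10 in Satb1-/- and 10.90 ± 0.44 in WT arrays (SD, n = 3 each). Their difference was -1.30 (SE 0.19, limma adjusted p = 0.00721), a linear ratio of 0.407. Without WT array 3 the difference was -1.05 (limma adjusted p = 0.000811). The call was lost without Satb1-/- array 1-1 (limma adjusted p = 0.057) or 2-1 (0.0531), and with arrays 1-1 and 1-2 averaged to 1 sample (0.0531).

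Sgce, which encodes epsilon-sarcoglycan of the muscle membrane complex, is paternally expressed, and is known to start head to head with Peg10 in a shared control region on chromosome 6. Its values were 5.59, 5.55 and 5.96 in Satb1-/- arrays and 6.18, 6.90 and 6.19 in WT arrays. The groups did not overlap, but WT array 2, not array 3, was the high one. The difference of -0.73 (SE 0.19) did not pass over all genes (limma adjusted p = 0.124); it was -0.91 with array weights, which favour WT array 2, and passed there (0.0195). The other measured genes of the cluster are read from the maternal copy. Ppp1r9a, a neuronal actin-binding protein gene, read 5.998, 6.003 and 5.982 in Satb1-/- arrays and 5.93, 6.09 and 5.71 in WT arrays, with overlap (difference 0.09, SE 0.12). Asb4, a ubiquitin ligase adaptor gene, was dim and averaged 3.45 in both groups.

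In gene order along chromosome 6, the low values stopped at this pair. On the side of Sgce, Casd1, a sialic acid acetyltransferase gene, differed by 0.11 and the collagen gene Col1a2 by 0.42, and on the side of Peg10, Ppp1r9a differed by 0.09, Pon1 by 0.06 and Pon3 by 0.12. None of these 5 neighbours passed the threshold (limma adjusted p = 0.365 to 0.944). The 15 brighter genes around Peg10 that are no members had a median difference of 0.11. Around the 30 measured genes, such regional medians lay between -0.04 and 0.14.

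Peg3 encodes a zinc-finger protein that represses transcription and acts in growth and maternal behaviour. It read 8.33, 8.16 and 8.42 in Satb1-/- arrays, against 9.12, 9.04 and 9.52 in WT arrays. No Satb1-/- array came near the lowest WT array. The means were 8.30 ± 0.13 in Satb1-/- and 9.23 ± 0.26 in WT arrays (SD, n = 3 each). Their difference was -0.92 (SE 0.14, limma adjusted p = 0.0103), a linear ratio of 0.527. The call was lost without Satb1-/- array 1-1 (limma adjusted p = 0.0637) or 1-2 (0.0788), and with these arrays averaged to 1 sample (0.0664). Without WT array 3 the difference was -0.78 (0.00589).

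Usp29, a ubiquitin protease gene, starts beside Peg3 on the opposite strand and is also paternally expressed, but its difference had the opposite sign. Its values were 4.25, 4.20 and 4.30 in Satb1-/- arrays and 4.01, 4.003 and 3.92 in WT arrays. All Satb1-/- values lay above all WT values, at a signal below the median gene. The difference of 0.27 (SE 0.10) did not pass (limma adjusted p = 0.33). Zim1, the maternally expressed zinc-finger gene on the side of Peg3, was dim and averaged 3.73 ± 0.02 in Satb1-/- and 3.67 ± 0.17 in WT arrays (SD, n = 3 each). Farther out, the olfactory receptor genes Olfr1350 and Olfr1349 differed by -0.09 and -0.29, Aurkc, a kinase gene of meiosis, by -0.14 and Zfp954 by -0.22, with no call among them (limma adjusted p = 0.686 to 0.931).

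The start regions of Peg3 and Usp29 are shown because these neighbours share their start DNA and had differences of opposite sign; Usp29 was added after its values were seen. Each window runs from 250 bases before to 50 bases after the start annotated by RefSeq in GRCm38.p6, 5′ to 3′ on the gene's own strand, with CpG dinucleotides in capitals. Peg3 lies on the minus strand of chr7:6730370-6730669 and Usp29 on the plus strand of chr7:6730333-6730632, so that 263 bases are common to both.
Peg3: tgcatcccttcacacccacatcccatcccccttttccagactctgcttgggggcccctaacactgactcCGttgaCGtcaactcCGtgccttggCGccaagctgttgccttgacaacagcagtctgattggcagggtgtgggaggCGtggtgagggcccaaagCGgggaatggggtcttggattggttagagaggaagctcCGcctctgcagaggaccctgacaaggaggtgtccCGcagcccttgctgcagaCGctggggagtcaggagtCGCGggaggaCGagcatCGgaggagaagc
Usp29: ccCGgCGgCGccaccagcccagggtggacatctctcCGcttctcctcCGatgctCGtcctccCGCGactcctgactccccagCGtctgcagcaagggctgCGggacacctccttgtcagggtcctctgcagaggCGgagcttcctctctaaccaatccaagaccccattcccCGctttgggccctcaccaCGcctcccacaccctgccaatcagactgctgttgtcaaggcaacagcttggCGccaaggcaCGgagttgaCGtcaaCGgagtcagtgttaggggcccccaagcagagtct
The Peg3 window held 13 CpGs and the Usp29 window 17, against a median of 7 over 32851 RefSeq windows of the same length. Neither window held TGCCGC, the letters bound by ZFP57 when methylated, or GCCAT, part of the YY1 core, on either strand, and each held CCCTC, part of the CTCF core, 1 time. Over all windows, 11.6% held TGCCGC, 40.5% GCCAT and 66.0% CCCTC. Of the 43 windows found for 28 of the 35 named genes, 9 held TGCCGC (20.9%), 17 GCCAT (39.5%) and 35 CCCTC (81.4%). Several windows of a gene can overlap, none of the 3 motifs contains another, and a match of letters is a description and not a binding site. The table used here held no window for Peg10 or Sgce.

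**Figure D2:**
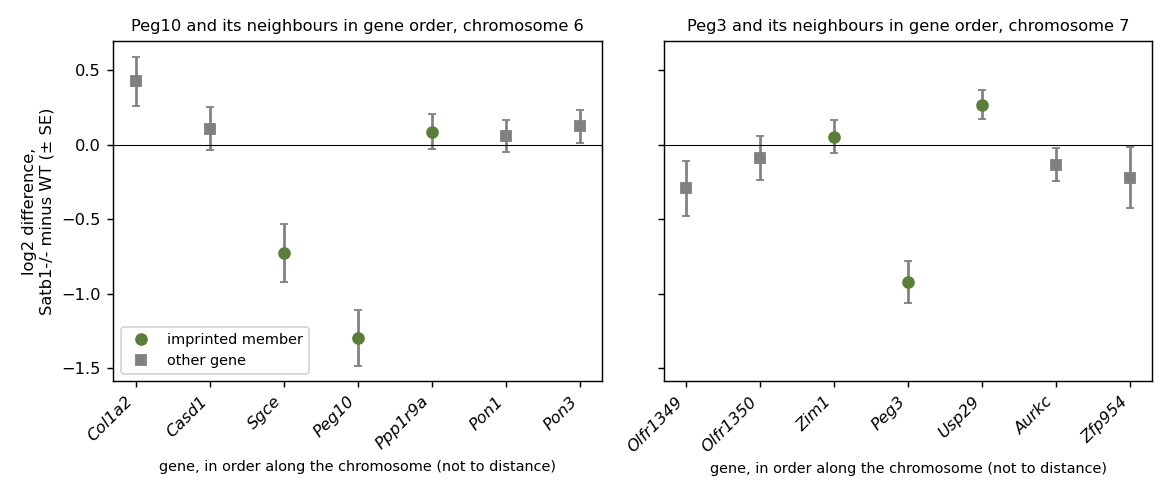
Log2 difference, Satb1-/- minus WT, with 1 SE either side, of Peg10 (left) and Peg3 (right) and the 3 tested genes on each side, in gene order without distances. Circles are imprinted genes measured here and squares other genes; Sgce (-0.73) is low next to Peg10 (-1.30), while Usp29 (0.27) is not low next to Peg3 (-0.92).

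The Kcnq1 cluster on distal chromosome 7 holds maternally expressed genes that restrain growth. All 5 of its measured members had a difference below 0, where 10259 of all 19938 genes did so. Of these 5, 0 passed the threshold. Cdkn1c, an inhibitor of cyclin-dependent kinases, read 5.62, 5.90 and 5.59 in Satb1-/- arrays and 6.27, 6.08 and 6.53 in WT arrays. The groups did not overlap, and the difference of -0.59 (SE 0.14) gave a limma adjusted p of 0.0746, which became 0.0421 after a second quantile normalization. Phlda2, which limits growth of the placenta, read 6.48, 6.44 and 6.33 in Satb1-/- arrays and 6.80, 6.81 and 7.55 in WT arrays. These groups did not overlap either, with WT array 3 far above the others (difference -0.64, SE 0.18, limma adjusted p = 0.163; -0.39 without WT array 3).

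Ascl2, a transcription factor gene of the trophoblast, read 3.96, 4.14 and 4.27 in Satb1-/- arrays and 4.51, 4.18 and 5.10 in WT arrays. Here the groups overlapped through WT array 2, at a signal below the median gene (difference -0.48, SE 0.20, limma adjusted p = 0.425; -0.23 without WT array 3). The potassium channel gene Kcnq1 (-0.17) and the transporter gene Slc22a18 (-0.13) were dim as well and overlapped. Of other genes of this region reported as imprinted, named here after their values were seen, the tetraspanin gene Cd81 differed by 0.10, Osbpl5 by 0.08, Tssc4 by 0.04 and the histone chaperone gene Nap1l4 by -0.21, with 0 calls.

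Igf2, the paternally expressed fetal growth factor of the adjoining Igf2-H19 cluster, read 5.40, 5.67 and 5.49 in Satb1-/- arrays and 5.56, 6.13 and 6.21 in WT arrays. WT array 1 lay within the Satb1-/- values and the other WT arrays above them (difference -0.45, SE 0.17, limma adjusted p = 0.344). Its receptor gene Igf2r, maternally expressed from chromosome 17 and a brake on Igf2 that delivers it to lysosomes, ran the other way. It read 7.96, 8.19 and 8.03 in Satb1-/- arrays and 7.53, 8.06 and 7.29 in WT arrays. WT array 2 lay among the Satb1-/- values (difference 0.43, SE 0.18, limma adjusted p = 0.398; 0.27 without WT array 3).

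**Figure D3:**
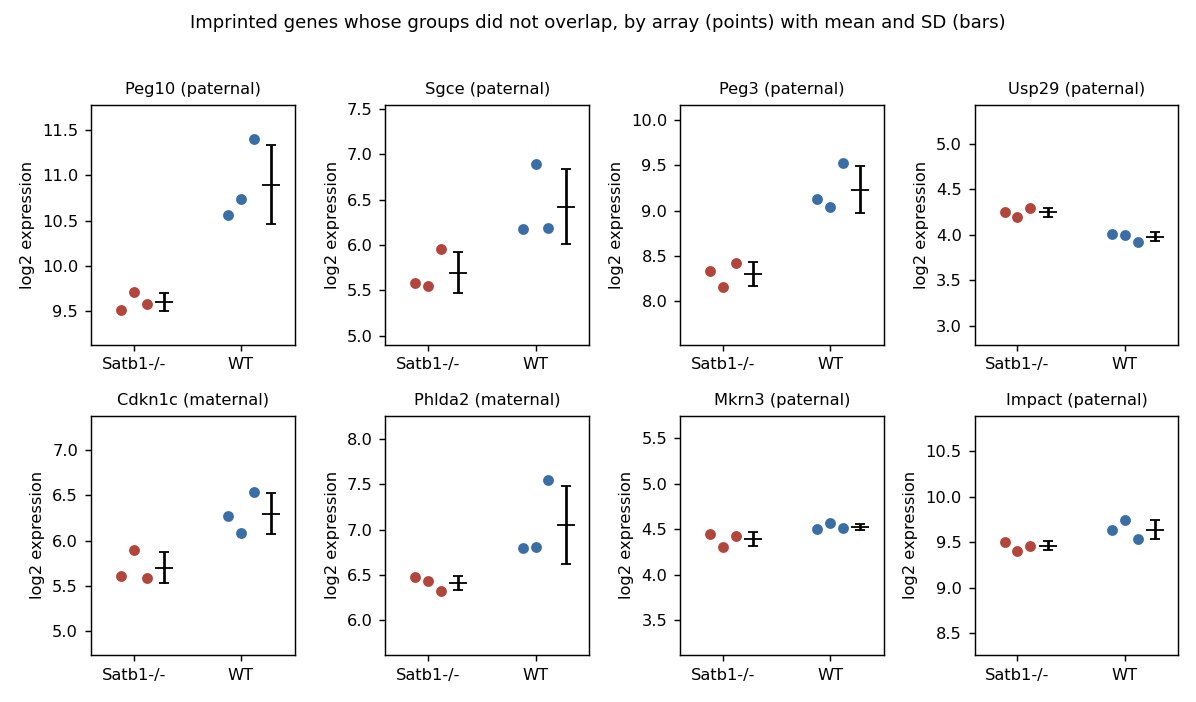
Log2 expression on each array (points, Satb1-/- left and WT right) of the 8 imprinted genes whose groups did not overlap, with mean and SD (bars); every panel spans the same number of log2 units. Peg10 and Peg3 separate widely, Mkrn3 and Impact by narrow margins, and only Usp29 is higher in Satb1-/- arrays.

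WT array 3 had the highest WT value of Peg10, Peg3, Cdkn1c, Phlda2, Ascl2, Igf2 and Mest, but over the 30 genes this array was the highest WT array for 13 and the lowest for 13, against 33.8% and 38.4% of all genes. Trophectoderm is the outer layer of the blastocyst and the source of the placenta. The mean deviation of its 11 measured markers of 13 from their own 6-array means was -0.32, -0.19 and -0.30 in Satb1-/- arrays and 0.06, 0.11 and 0.64 in WT arrays. Of the 11, 3 lay lower without overlap, the keratin genes Krt8, Krt18 and Krt7. Another 3 lay higher without overlap, the transcription factor genes Eomes (0.55), Tfap2c (0.33) and Tead4 (0.43). Over all genes, 6.97% lay lower and 8.18% higher without overlap. Krt8, Krt18, Krt7, Cdx2, Gata3, Hand1 and Eomes had their highest WT value in array 3, while Elf5 and Tead4 had their lowest WT value there. By the test, 2 of the 11 fell and 0 rose, against 0.476% and 0.923% of all genes. Krt8 fell by 2.72 and Krt18 fell by 2.48 on the log2 scale (limma adjusted p = 0.00209 and 0.00514). The lineage regulators Cdx2 and Elf5 were dim in both groups: Cdx2 averaged 4.37 ± 0.10 in Satb1-/- and 4.60 ± 0.22 in WT arrays, and Elf5 4.07 ± 0.12 in Satb1-/- and 3.999 ± 0.10 in WT arrays (SD, n = 3 each). The part of such cells in the values of Peg10 and the Kcnq1 cluster was not tested.

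The Snrpn-Ube3a cluster, whose human counterpart is lost in Prader-Willi and Angelman syndromes, held 4 measured members, all paternally expressed, and 0 calls. Ndn, which encodes the growth suppressor necdin, read 7.37, 6.93 and 7.37 in Satb1-/- arrays and 7.13, 6.88 and 7.14 in WT arrays. The groups overlapped (difference 0.18, SE 0.14). Magel2, a partner of ubiquitin ligases, differed by -0.31 (-0.15 without WT array 1) and overlapped. Mkrn3, a ubiquitin ligase gene that holds back puberty, read 4.44, 4.30 and 4.43 in Satb1-/- arrays and 4.50, 4.56 and 4.51 in WT arrays, without overlap but with a difference of only -0.13 (SE 0.10, limma adjusted p = 0.769). Peg12, a relative of the Wnt pathway gene Frat1, read 5.49, 5.54 and 5.67 in Satb1-/- arrays and 5.71, 5.62 and 5.55 in WT arrays, which overlapped.

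Mest, a paternally expressed gene for a hydrolase-like protein of mesoderm, read 8.76, 8.20 and 8.69 in Satb1-/- arrays and 8.80, 8.43 and 9.39 in WT arrays, and its groups overlapped (difference -0.32, SE 0.23). The difference was -0.061 without WT array 3, -0.15 without Satb1-/- array 1-2 and -0.54 without WT array 2. Impact, a regulator of translation under stress, read 9.51, 9.41 and 9.46 in Satb1-/- arrays and 9.63, 9.75 and 9.53 in WT arrays. Its groups did not overlap, but the gap was narrow (difference -0.18, SE 0.10, limma adjusted p = 0.649). Plagl1, a zinc-finger regulator of other imprinted genes, read 5.17, 5.15 and 5.08 in Satb1-/- arrays and 5.12, 5.08 and 5.37 in WT arrays (difference -0.06, SE 0.11). Nnat, which encodes the small membrane protein neuronatin, read 5.87, 5.81 and 5.91 in Satb1-/- arrays and 5.91, 5.69 and 5.66 in WT arrays (difference 0.11, SE 0.11). In these genes the groups overlapped, and the dim Ras activator gene Rasgrf1 averaged 3.77 in both groups.

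The Dlk1-Dio3 cluster on chromosome 12, whose silencing is known to mark mouse stem cells of low developmental capacity, had 4 members with small differences and 0 calls. Meg3, its maternally expressed long noncoding RNA, read 7.38, 7.38 and 7.36 in Satb1-/- arrays and 7.25, 7.36 and 7.05 in WT arrays. WT array 2 lay at the Satb1-/- level (difference 0.15, SE 0.11). Dlk1, the paternally expressed membrane ligand gene, read 5.82, 5.77 and 6.08 in Satb1-/- arrays and 6.12, 5.92 and 6.001 in WT arrays, which overlapped (difference -0.12, SE 0.12). The noncoding RNA gene Rian (0.04) and the thyroid hormone deiodinase gene Dio3 (-0.08) were dim.

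Dcn, the gene of the matrix proteoglycan decorin, imprinted in the placenta and abundant in fibroblasts, had the highest difference of the 30 without a call. It read 8.35, 7.92 and 8.25 in Satb1-/- arrays and 7.54, 8.33 and 6.88 in WT arrays. WT array 2 lay among the Satb1-/- values and the other WT arrays below them (difference 0.59, SE 0.29, limma adjusted p = 0.545), from 0.24 to 0.96 with any one array left out. Grb10, a maternally expressed adaptor gene that dampens insulin signalling, read 6.65, 6.19 and 6.55 in Satb1-/- arrays and 6.39, 6.33 and 6.42 in WT arrays, with overlap. The creatine synthesis gene Gatm averaged 4.87 ± 0.22 in Satb1-/- and 4.70 ± 0.24 in WT arrays (SD, n = 3 each), with overlap.

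Feeder fibroblast markers were read beside these genes, as fibroblasts are known to express Dcn. Of 21 measured markers of 22, 0 rose and 0 fell, against 0.923% and 0.476% of all genes. At an unadjusted limma p under 0.05, 5 were higher and 0 lower, against 5.92% and 4.55% of all genes. The 5 were Thy1 (0.62), Postn (0.61), Pdgfra (0.53), Col1a2 (0.42) and Fbln2 (0.33). Thy1 and Fbln2 lay above WT on every Satb1-/- array, as did 8.18% of all genes. A difference above 0 was seen in 18, against 9679 of all 19938 genes, and the median difference was 0.18. The mean level of the 21 markers was 0.23, -0.05 and 0.13 in Satb1-/- arrays and -0.10, -0.02 and -0.19 in WT arrays. It was lowest in WT array 3, but S100a4, Twist1, Prrx1, Acta2, Tagln, Vim, Pdgfrb and Loxl1 had their highest WT value there. Dcn, Igf2r and Meg3 were among the 13 imprinted genes with their lowest WT value in that array. For 13 of the 30 it held the highest WT value. Col1a1 averaged 8.07 ± 0.10 in Satb1-/- and 7.95 ± 0.20 in WT arrays, and Col3a1 6.18 ± 0.07 in Satb1-/- and 6.10 ± 0.16 in WT arrays (SD, n = 3 each). The part of feeder RNA in these imprinted genes was not tested.

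**Figure D4:**
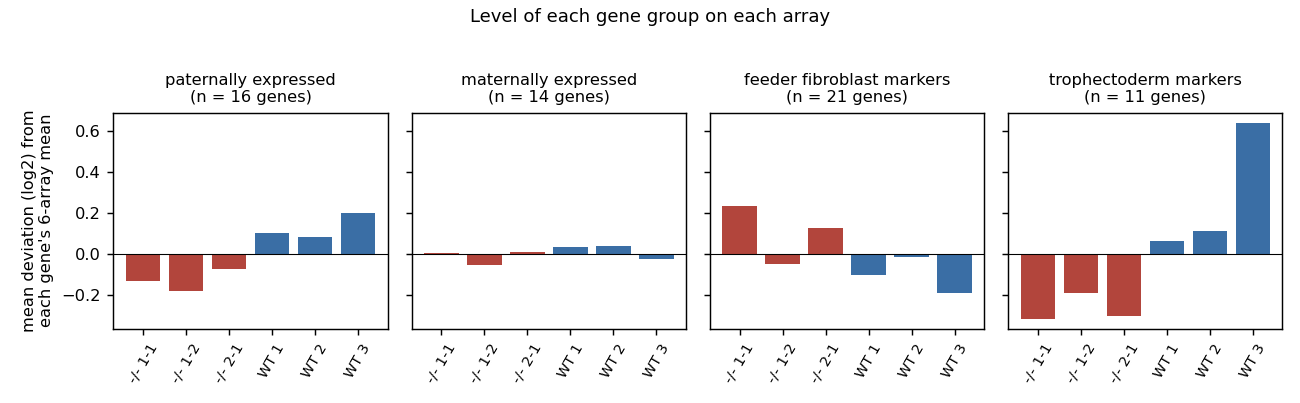
Level of 4 gene groups on each array (bars), as the mean deviation in log2 units of the group's genes from their own 6-array means, with Satb1-/- arrays left of WT arrays. Paternally expressed genes lay between -0.18 and -0.07 in Satb1-/- arrays and between 0.08 and 0.20 in WT arrays. These groups overlapped once Peg10, Peg3 and Sgce were left out (not drawn). Maternally expressed genes lay between -0.06 and 0.01 in Satb1-/- arrays and between -0.03 and 0.04 in WT arrays. The trophectoderm mean stood highest in WT array 3 (0.64). Of its 11 markers, 6 had a difference below 0 and 5 above, from -2.72 (Krt8) to 0.55 (Eomes).

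Of 41 further genes reported as imprinted, 31 were measured, and not all of these lie near the clusters above. By the test 0 passed in either direction, against 1.4% of all genes, and the median difference was 0.02. At an unadjusted limma p under 0.05, 3 of the 31 passed, against 10.5% of all genes. The largest was that of Ddc, a dopamine synthesis gene beside Grb10 with imprinted expression in the heart, at 5.71, 6.10 and 5.79 in Satb1-/- arrays and 5.19, 5.05 and 5.54 in WT arrays. All Satb1-/- values lay above WT (difference 0.61, SE 0.15, limma adjusted p = 0.0964).

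Of 26 genes that set, keep or erase imprints, 1 fell and 1 rose, with a median difference of 0.03. Over all genes, 0.476% fell and 0.923% rose. At an unadjusted limma p under 0.05, 3 were lower and 5 higher, against 4.55% and 5.92% of all genes. Every Satb1-/- value lay below WT in 4 and above WT in 5, where 6.97% and 8.18% of all genes did so. Dnmt3a, which encodes a methyltransferase that lays imprints down in germ cells, averaged 7.04 ± 0.24 in Satb1-/- and 7.98 ± 0.36 in WT arrays (SD, n = 3 each; difference -0.94, SE 0.18, limma adjusted p = 0.0358). Dppa3, whose product shields maternal imprints in the zygote, read 8.06, 7.61 and 8.09 in Satb1-/- arrays and 7.23, 7.33 and 7.18 in WT arrays. It rose by 0.67 (SE 0.14, limma adjusted p = 0.0485), with all Satb1-/- values above WT. Either call was lost without Satb1-/- array 1-1 or 2-1 or WT array 1; that of Dnmt3a was also lost without Satb1-/- array 1-2, and that of Dppa3 without WT array 2 or 3. With each array centred, limma gave an adjusted p of 0.0591 for Dnmt3a and 0.0572 for Dppa3, and with arrays 1-1 and 1-2 averaged 0.111 and 0.0629. A second quantile normalization gave 0.0548 for Dppa3 and the trended, robust eBayes 0.0516, and neither call held with all probe sets tested or the floor. Both held with array weights (limma adjusted p = 0.0248 for Dnmt3a and 0.0204 for Dppa3). Dppa3 has 2 probe sets, and their mean rose by 0.84 (limma adjusted p = 0.00616).

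Zfp57 read 9.95, 9.78 and 9.81 in Satb1-/- arrays and 9.01, 8.87 and 9.50 in WT arrays, higher without overlap, and just missed the threshold (difference 0.72, SE 0.16, limma adjusted p = 0.0558). Its partner Trim28 differed by 0.12 (limma adjusted p = 0.882), Dnmt1 by -0.02 (0.982), Uhrf1 by 0.27 (0.574), Dnmt3b by -0.51 (0.332) and the insulator protein gene Ctcf by -0.38 (0.308). Among 10 measured growth genes tied to Plagl1 and IGF signalling, 1 rose, the cell cycle inhibitor gene Cdkn1b (1.39, limma adjusted p = 0.000859). Over all genes, 0.923% rose. Igfbp2, an IGF-binding protein gene, read 9.78, 10.33 and 9.99 in Satb1-/- arrays and 8.80, 9.65 and 8.68 in WT arrays, without overlap (difference 0.99, SE 0.23, limma adjusted p = 0.0771).

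Among 9 ES cell genes, Nanog (1.09), Klf4 (0.97) and Esrrb (0.56) rose and 0 fell. Over all genes tested, 0.923% rose and 0.476% fell by the same rule. Of the 9, 4 had a difference below 0. Pou5f1 (-0.39) and Tdgf1 (-0.06) were among these and lay below WT on every Satb1-/- array, as did 6.97% of all genes. Of 14 genes of extraembryonic endoderm, Lama1 (1.53) and Sparc (0.63) rose, 0 fell and 8 lay below 0, with a median of -0.00948. Lama1, Sparc and Lamb1 (0.52, limma adjusted p = 0.0738) lay above WT on every Satb1-/- array, as did 8.18% of all genes. Col4a1 (-0.43) and Col4a2 (-0.18), without calls, lay below WT on every Satb1-/- array, as did 6.97% of all genes. The lineage regulator Sox17 was dim and averaged 4.04 ± 0.26 in Satb1-/- and 4.12 ± 0.10 in WT arrays (SD, n = 3 each). Of 9 neural genes, Nes (-0.58) fell and 0 rose, with 4 below 0, 5 above it and a median of 0.000773. Nes, Pax6 (-0.25) and Otx2 (-1.29, limma adjusted p = 0.128) lay below WT on every Satb1-/- array, as did 6.97% of all genes. The calls of Klf4, Esrrb and Sparc were lost without any one Satb1-/- array or WT array 1, those of Klf4 and Sparc also without WT array 2, and that of Nes without any one of the 6 arrays.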

How the data were processed

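The values the authors deposited are on the log2 scale, with 1 for every probe set on an array, and come from RMA, per the submitters' processing notes, which name neither its settings nor a genome build. They cover 35557 probe sets, with medians of 4.69 to 4.85 by array. Precision is limited by the number of arrays, and background compresses the differences of dim genes.

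Of the probe sets, 21789 had exactly 1 gene symbol in the platform annotation, 1621 several and 12147 none. A gene was read from its probe set of highest 6-array mean (19938 genes; each of the 30 imprinted genes has 1 such probe set). Satb1-/- and WT were compared with limma 3.58.1 in R 4.3.3 (lmFit, eBayes, no covariate), and p-values were adjusted by Benjamini-Hochberg over all genes, with a threshold of 0.05. Other p-values printed without a tool's name are limma's. On simulated data with the genes' own spread (19938 genes, this comparison), 24.2% of changes of 0.5 log2 units, 83.6% of 1 and 98.8% of 2 were found, and 4.05% of calls were false.

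The imprinted genes, the 8 further lists (131 of 146 entries measured) and the rule for named genes were chosen with earlier results of these data known. The rule named all imprinted genes, up to 4 called genes of each list and fixed genes of imprint control, ES cells, feeders and other cell types. Elf5, Krt7, Eomes, Tfap2c, Tead4, Gata3, Hand1, Ddc, Igfbp2 and the further Kcnq1 region genes were named after their values were seen. Tdgf1, Lamb1, Col4a1, Col4a2, Otx2 and Pax6 were too. So were the feeder markers beyond Col1a1, Col1a2 and Col3a1. Gene order came from RefSeq GRCm38.p6, by Entrez ID, for neighbourhood only. Regional medians, added after the values were seen, take up to 10 genes on each side brighter than the median gene. There were 15 alternatives, 6 of them leaving out an array.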

Additional observations from a re-analysis of the deposited data

How the results depend on the processing

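No paired analysis was possible because the clone numbers of the Satb1-/- arrays match no WT number. The count of 2 lower imprinted genes was 0 with all probe sets tested, with a floor at the 20th percentile and with Satb1-/- arrays 1-1 and 1-2 averaged, and 0 to 2 with 1 array left out; averaging leaves fewer samples, and for the others the cause was not tested. It was 3 with array weights or a second quantile normalization, which added Sgce and Cdkn1c in turn. No setting called a higher imprinted gene, and 26 of the 30 were called under no setting. The maternal median (0.05) lay between -0.026 and 0.085 with 1 array left out and was 0.088 among genes above the median level. The paternal median was -0.077 without Peg10, Peg3 and Sgce, an alternative chosen after seeing the data. Over all genes, 184 rose and 95 fell. The counts were 373 and 235 with array weights, 54 and 10 with all probe sets tested, 27 and 7 with the floor, and 90 and 27 with the Satb1-/- arrays averaged. Lower genes numbered 183 after quantile normalization and 47 with each array centred, against 242 and 159 higher ones. With 1 array left out, 74 to 356 rose and 19 to 124 fell; the cause was not tested.

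Signs turned in 7 of the 30 imprinted genes, none of them called. After quantile normalization, with arrays centred and with array weights, Asb4 was 0.0103, 0.0236 and 0.0199 and Rasgrf1 0.0246, 0.0269 and 0.0640; Rasgrf1 was 0.0188 with the Satb1-/- arrays averaged. With array weights Ppp1r9a was -0.00217. Dnmt1 was 0.00841 with arrays centred and 0.00445 with array weights. With 1 array left out, the ranges were -0.062 to 0.083 for Asb4, -0.012 to 0.22 for Grb10, -0.066 to 0.10 for Rasgrf1, -0.079 to 0.21 for Rian, -0.11 to 0.034 for Plagl1, -0.012 to 0.18 for Ppp1r9a, -0.041 to 0.12 for Zim1, -0.058 to 0.038 for Dnmt1, -0.062 to 0.22 for Casd1, -0.00951 to 0.26 for Trim28 and -0.21 to 0.055 for Sox17. Zfp57 ranged from 0.59 to 0.91 over all alternatives, and its adjusted p from 0.00158 to 0.296. Low signal may limit Asb4, Zim1, Dio3, Rasgrf1, Rian, Usp29 and the other genes dimmer than the median gene (12 of 30). Which of them lay near background was not tested.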

Other observations

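Imprinted genes that share a probe set with another symbol gave the following values, which belong to no single gene. The probe set named for Snurf and Snrpn read 8.65, 8.45 and 8.48 in Satb1-/- arrays and 8.44, 8.24 and 8.87 in WT arrays. That named for Gnas and Gnasas1 read 6.72, 6.62 and 6.72 in Satb1-/- arrays and 6.81, 6.74 and 6.69 in WT arrays. The probe set that lists Ube3a among 4 symbols read 7.53, 7.25 and 7.53 in Satb1-/- arrays and 7.47, 7.53 and 7.62 in WT arrays. These groups overlapped. A second probe set of Rian, shared with AF357355, read 5.70, 5.55 and 5.54 in Satb1-/- arrays and 5.41, 5.52 and 5.53 in WT arrays, all higher in Satb1-/- by a narrow margin (means 5.60 and 5.49 in Satb1-/- and WT arrays), while the probe set that carries its symbol alone overlapped.

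The spread of the 30 imprinted genes was near that of other genes. Their median SD was 0.13 in Satb1-/- and 0.17 in WT arrays, against 0.11 in Satb1-/- and 0.16 in WT arrays over all genes. Satb1-/- array 1-2 was the lowest of its group for 15 of the 30 genes, where 36.5% of all genes were lowest in that array.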
